A study of Mus musculus with 8 samples.

Results

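The amino acid transporters of the solute carrier families Slc1, Slc3, Slc6, Slc7, Slc36 and Slc38 were followed in mouse kidney. They were taken from the array annotation as all non-control probes whose gene name begins with Slc1a, Slc3a, Slc6a, Slc7a, Slc36a or Slc38a and a digit. This gave 116 of 56605 probes, for 64 genes. The names Slc6a19os, Slc7a6os, Slc36a1os and Slc36a3os belong to transcripts named for the opposite strand of a transporter gene and were kept, since the rule takes them in. The series names 36824 genes or transcripts in all. In 50 of the 64 genes a probe was clear of background in both kidneys of some group, and these were tested within the whole set of 22367 genes that met that condition.

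Kidney samples of male mice aged 20 weeks on the C57BLKS/J Iar background, 8 in all and here called kidneys, were measured in 4 groups of 2. The first group held db/db mice given the miR-181b-5p mimic on nanoparticles (labelled PEI), the next held db/db mice given a control miRNA on the same kind of nanoparticles, another held untreated db/db mice, and the last held normal mice (labelled m/m). All db/db mice carried Leprdb on both chromosomes, a mutation of the leptin receptor gene that leads to obesity and diabetes, in every cell of the body. The series asks which kidney genes the mimic changes in the diabetic mouse, and the untreated and normal groups also give the effect of the db/db genotype. The labels do not say whether the 2 samples of a group came from separate mice, so p-values measure the spread between these samples. In bulk kidney RNA, fewer cells of a type and less RNA per cell cannot be told apart.

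The kidney filters amino acids into the primary urine and takes nearly all of them back in the proximal tubule. Transporters of the apical membrane, such as Slc6a19, Slc6a18, Slc1a1 and the pair of Slc3a1 with Slc7a9, carry them from the urine into the cell. Exchangers of the basolateral membrane, such as the heavy chain Slc3a2 with the light chains Slc7a7 or Slc7a8, pass them on to the blood. Other members supply glutamine for ammonia production, load cells of the medulla with osmolytes, move amino acids across lysosomal membranes, or clear transmitters in nervous tissue.

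The sequences that bear on the results are the mimic's miRNA and stretches of the array probes. The mature miRNA is shown with its seed, bases 2 to 8, in capitals, as given by RefSeq for GRCm38.p6, where it is encoded by Mir181b-1 on chromosome 1 and Mir181b-2 on chromosome 2. The probe stretches are 30 bases of the 60-base probes that stand for the genes described most below. Capitals mark letters that lie in a run of 16 or more shared, on either strand, with a probe of another gene.
mmu-miR-181b-5p: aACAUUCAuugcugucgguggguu
Slc7a13 probe, bases 1 to 30: ccatactgtgttccagataaaggttaagtg
Slc38a4 probe, bases 1 to 30: cgtttttctagctctatcatgggatacttg
Slc3a2 probe, bases 1 to 30: gagggcttgctgttacagttcccctttgtg
Slc6a15 probe, bases 1 to 30: caggactcttaagtgctgatttggaaactt
Slc1a4 probe, bases 21 to 50: tgtatcaaGTGTGTGTGTGTATGTGTGTGC
Slc38a9 probe, bases 1 to 30: tctctGTGAGTTCCAGGACAGCCAAagcta
Slc3a2, a probe not used for its level, bases 2 to 31: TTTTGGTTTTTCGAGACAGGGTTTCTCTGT
The probes of Slc7a13, Slc38a4, Slc3a2 and Slc6a15 shared no such run with a probe of another gene. The Slc1a4 probe shared one with probes of 16 other genes, the Slc38a9 probe with probes of 12 and the last Slc3a2 probe with probes of 26, which bears on their values below.

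The scanner called 56.5% to 62.5% of an array's spots well above background, and the 75th percentile of the signal was 489 to 651 units, with 0 saturated spots. Levels are log2 intensities relative to the 75th percentile of the array, and levels of different probes are not compared with each other. All 14 proximal tubule markers examined lay well above background on all 8 arrays. Replicate arrays correlated at r = 0.976 for the mimic, 0.995 for control miRNA, 0.997 for untreated db/db and 0.992 for normal, and mimic replicate 1 stood apart from the other arrays. All arrays sat on 1 slide, the nanoparticle groups in array row 2 and the untreated and normal groups in array row 1, with each group in a place of its own. Place on the slide and group therefore cannot be told apart. Differences were tested with limma over all 8 arrays, and a gene passed at a Benjamini-Hochberg adjusted p under 0.05 over 22367 genes. With 2 arrays a group the smallest exact permutation p is 0.333, and the p-values given here therefore depend on limma's pooling of variance across genes.

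Against normal kidney, few transporters passed. Slc38a4, a sodium-coupled transporter of neutral amino acids, rose 2.60-fold to 3.51-fold and Slc6a9, a glycine transporter, fell 2.22-fold to 2.38-fold over the 3 db/db groups. Slc6a15, which carries branched neutral amino acids and proline, fell in mimic and untreated db/db kidney, and Slc3a2 rose in untreated db/db kidney. Slc7a13, an aspartate and glutamate transporter of the straight proximal tubule in mouse, had the most negative difference of all members in each db/db group and fell in mimic kidney. In mimic against normal kidney 6 members passed, 2 higher and 4 lower, or 12% of the 50, where 8.98% of all genes passed (3.04% higher, 5.93% lower). In control miRNA against normal kidney 2 passed, 1 in each direction, or 4%, against 1.87% of all genes (0.675% higher, 1.19% lower). In untreated db/db against normal kidney 4 passed, 2 in each direction, or 8%, against 3.5% of all genes (1.24% higher, 2.26% lower). At an unadjusted p under 0.05 there were 17 members in mimic, 15 in control miRNA and 17 in untreated db/db against normal kidney, beside 30.3%, 21.7% and 24.7% of all genes. The arrays of the groups did not overlap for 22 members in mimic against normal (7 higher, 15 lower), where 53.8% of all genes did not (21.6% higher, 32.2% lower). They did not overlap for 33 members in control miRNA against normal (16 higher, 17 lower), beside 59% (26.2% higher, 32.8% lower), and for 31 members in untreated db/db against normal (19 higher, 12 lower), beside 63.2% (28.3% higher, 35% lower). The median difference over the 50 members was -0.16 in mimic, -0.06 in control miRNA and 0.02 in untreated db/db against normal kidney, beside -0.09, -0.04 and -0.04 over all genes. On all 6 db/db arrays, 5 members (10%) lay above both normal arrays and 10 (20%) below them, shares near the 14% and 20.1% of all genes. These comparisons share the normal arrays and are not independent of each other. For comparisons that hold no mimic array, leaving out either mimic array gave the same counts, since a lone array adds nothing to the estimated spread. The number of members that passed depended on single arrays. Without mimic replicate 1 it was 9 for mimic, 11 for control miRNA and 14 for untreated db/db against normal, with 8.49%, 11.4% and 14.9% of all genes passing. Without mimic replicate 2 it was 19, 11 and 14, with 28.7%, 11.4% and 14.9% of all genes passing. Without either normal array it was 1 or 2, 0 and 0, with 1.44% to 1.57%, 0.0984% to 0.134% and 0.188% to 0.219% of all genes. Without either untreated array it was 0 for control miRNA and 0 for untreated db/db, and without either control miRNA array 0 and 1, with under 1% of all genes passing in each.

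**Figure D1:**
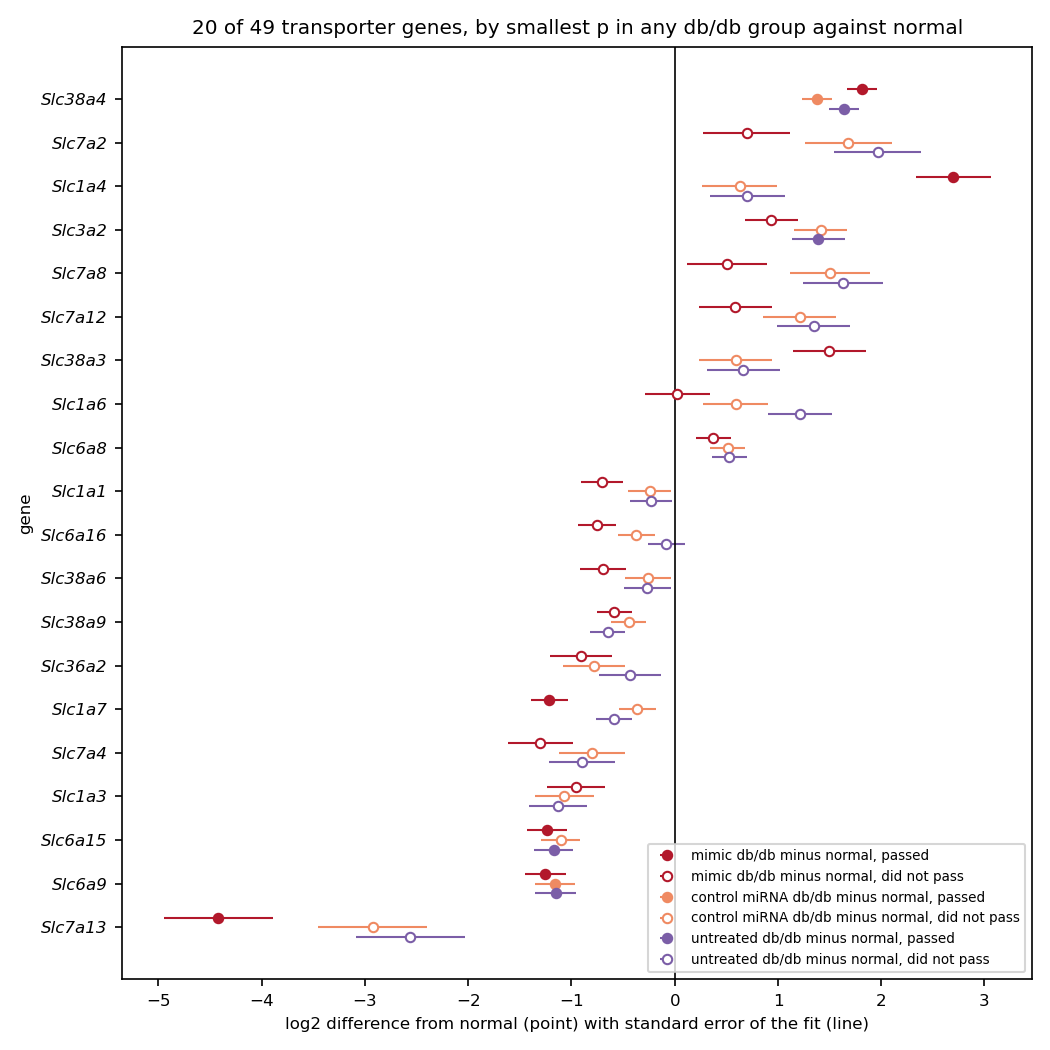
Log2 difference from normal kidney for 20 of the tested transporter genes, those with the smallest p in any of the 3 comparisons among the 49 reported, with points at the limma estimate and lines for its standard error (2 arrays a group). Filled points passed at an adjusted p under 0.05. Slc38a4 and Slc6a9 are filled in all 3 groups, and Slc7a13 lies farthest to the left at -4.42 in the mimic group.

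Among the 10 apical transporters of the proximal tubule, 1 passed, Slc7a13 in the mimic group. Its probe lies on chromosome 4 at 19768758 to 19768817 (mm9). The log2 level of Slc7a13 was 0.11 and 1.71 in mimic, 2.62 and 2.19 in control miRNA, 2.40 and 3.14 in untreated db/db and 5.23 and 5.43 in normal kidney. All 6 db/db kidneys lay below both normal kidneys, and both mimic kidneys lay below the 4 other db/db kidneys. Mimic kidney averaged 0.91 ± 1.13 and normal kidney 5.33 ± 0.14 (SD, n = 2 each), a difference of -4.42 with a standard error of 0.53, or 21.4-fold lower (limma, adjusted p = 0.00919). The difference from normal was -2.92 in control miRNA kidney, 7.59-fold (adjusted p = 0.0563 in limma), and -2.56 in untreated db/db kidney, 5.90-fold (0.0566), neither of which passed. Both passed when either mimic array was left out. Another Slc7a13 probe, on chromosome 4 at 19767492 to 19767551, was well above background only on the normal arrays and was kept only through them, so that its difference is given with no test. It was at least 3.02-fold lower in mimic, 3.35-fold in control miRNA and 3.63-fold in untreated db/db than in normal kidney. That probe shares a run of 16 letters with probes of 9 other genes, of which 6 could be tested, and their median difference from normal was -0.06 in mimic and -0.00469 in untreated db/db kidney.

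Most markers of the straight proximal tubule and the androgen-dependent kidney genes lay below normal in the db/db groups, as Slc7a13 did. On average 7 of 9 straight tubule markers were below normal in every db/db group, while the other 2, Slc5a10 and Agt, were above it. The summed linear level of 9 straight tubule markers was 413 to 477 in mimic, 494 to 506 in control miRNA, 497 to 518 in untreated db/db and 924 to 1092 in normal kidney. Of these markers 4 passed as lower and 1 as higher in mimic against normal kidney. In control miRNA 2 passed as lower and 1 as higher, and in untreated db/db kidney 3 as lower and 1 as higher. The 10 androgen-dependent genes, 2 of which are also among the straight tubule markers, summed to 338 to 445 in mimic, 454 to 594 in control miRNA, 466 to 546 in untreated db/db and 1289 to 1566 in normal kidney. Of these genes 10 passed as lower in mimic, 7 in control miRNA and 7 in untreated db/db kidney against normal. The 14 general proximal tubule markers summed to 1119 to 1797 in mimic, 1519 to 1720 in control miRNA, 1623 to 1675 in untreated db/db and 1501 to 1777 in normal kidney, and 0 of them passed in any of the 3 comparisons with limma, with 5, 2 and 2 at an unadjusted p under 0.05. Over all genes, 8.98% passed in mimic, 1.87% in control miRNA and 3.5% in untreated db/db against normal kidney. Markers of other cell types differed too. The 7 glomerulus markers summed to 24.5 to 30.8 in mimic, 20.7 to 24.6 in control miRNA, 22.7 to 25.2 in untreated db/db and 12.7 to 13.3 in normal kidney, with 6, 3 and 3 of them higher in the db/db groups. The 6 measured markers of T and NK cells summed to 1.42 to 1.67 in mimic, 1.58 to 2.08 in control miRNA, 1.62 to 1.80 in untreated db/db and 2.88 to 3.15 in normal kidney, with 3, 0 and 0 of them lower. Macrophage markers summed to 8.11 to 16.3 over the db/db arrays and 18.0 to 19.9 in normal kidney. Red cell markers summed to 11.7 to 368 over the db/db arrays and 13.5 to 24.3 in normal kidney. Urothelium markers summed to 1.13 to 6.45 and 3.46 to 12.8, and adipocyte markers to 9.13 to 12.7 and 10.2 to 72.9. Of 8 female-biased kidney genes, 3 passed as higher and 2 as lower in mimic, and 2 as higher in each other db/db group. On average 5 were above normal and 3 below it in every db/db group. Their sums were 128 to 227 in mimic, 169 to 247 in control miRNA, 156 to 205 in untreated db/db and 268 to 379 in normal kidney. Cyp2a5 and Cyp2a4 made up 66.6% to 93.5% of these sums. The part of these marker changes in the level of Slc7a13 was not tested.

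The other 9 apical transporters did not pass in any comparison. Slc6a19, the main carrier of neutral amino acids, was at 1.98 and 4.12 in mimic, 4.21 and 4.02 in control miRNA, 4.25 and 4.26 in untreated db/db and 3.08 and 3.85 in normal kidney. Only mimic replicate 1 lay away from the other db/db arrays. Slc6a18, a carrier of glycine and other neutral amino acids, differed from normal by 0.15 in mimic, -0.23 in control miRNA and -0.18 in untreated db/db kidney. Slc3a1 and Slc7a9, which together form the cystine and dibasic amino acid transporter, differed by -0.38 and 0.42 in mimic, -0.27 and 0.56 in control miRNA, and -0.13 and 0.53 in untreated db/db kidney. Another Slc7a9 probe was at 0.69, 1.05 and 1.01. Slc1a1, a glutamate and aspartate carrier, was at 3.32 and 3.88 in mimic, 4.00 and 4.12 in control miRNA, 4.00 and 4.13 in untreated db/db and 4.19 and 4.41 in normal kidney. All 6 db/db kidneys thus lay below both normal kidneys, by -0.70, -0.24 and -0.23 on average (adjusted p = 0.0825, 0.538 and 0.525 in limma). Slc6a20a and Slc6a20b, carriers of proline and related imino acids, differed from normal by 0.45 and -0.43 in mimic, 0.33 and -0.05 in control miRNA, and 0.46 and -0.04 in untreated db/db kidney. The proton-coupled transporters Slc36a1 and Slc36a2 differed by -0.16 and -0.91, 0.13 and -0.78, and -0.13 and -0.44 in the same order of groups. Slc36a2 was at -2.89 and -3.71 in normal kidney and between -4.47 and -3.65 on the db/db arrays. Only normal replicate 1 lay apart. Another Slc36a2 probe, not kept, read -2.73 on that array and between -7.35 and -6.88 on the others. On normal replicate 1 the adipocyte marker sum was 72.9, beside 10.2 on replicate 2, and its part here was not tested.

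Of 5 tested basolateral transporters 1 passed, Slc3a2 in untreated db/db kidney, and their median difference from normal was 0.51 in mimic, 0.78 in control miRNA and 0.77 in untreated db/db. Slc3a2, the heavy chain that brings several light chains to the membrane (chromosome 19, 8782189 to 8782248 on mm9), was at 4.82 and 5.59 in mimic, 5.70 and 5.66 in control miRNA, 5.78 and 5.54 in untreated db/db and 4.17 and 4.37 in normal kidney. All 6 db/db kidneys lay above both normal kidneys. Untreated db/db kidney averaged 5.66 ± 0.17 and normal kidney 4.27 ± 0.14 (SD, n = 2 each), a difference of 1.39 with a standard error of 0.26, or 2.62-fold (limma, adjusted p = 0.0462). The difference was 1.41 in control miRNA (adjusted p = 0.0579 in limma) and 0.93 in mimic kidney (0.0733). The control miRNA comparison passed when either mimic array was left out. The mimic difference was 1.32 without mimic replicate 1. Of the other Slc3a2 probes, one that spans different bases of the transcript was 0.88, 1.58 and 1.66 higher in mimic, control miRNA and untreated db/db than in normal kidney, and passed in untreated db/db (adjusted p = 0.0347 over probes). The remaining probe, whose letters are nearly all shared with probes of 26 other genes, differed by -0.01, 0.00 and 0.20, and those other probes had medians of -0.41, -0.33 and -0.46.

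Light chains that pair with Slc3a2 did not pass. Slc7a8, an exchanger of neutral amino acids, was at 2.86 and 4.09 in mimic, 4.35 and 4.60 in control miRNA, 4.79 and 4.40 in untreated db/db and 3.03 and 2.90 in normal kidney. Its 4 control miRNA and untreated values lay above all others, and mimic replicate 1 lay just below the normal values. The differences from normal were 0.51, 1.51 and 1.63 in mimic, control miRNA and untreated db/db kidney (limma, adjusted p = 0.411, 0.102 and 0.0751). Without mimic replicate 1 the mimic difference was 1.12. The control miRNA and untreated comparisons of Slc7a8 passed when either mimic array was left out. Another Slc7a8 probe was at -0.57, 0.15 and 0.01 against normal. Slc7a7, an exchanger that lets dibasic amino acids out to the blood, was at 5.32 and 6.17 in mimic, 6.30 and 6.25 in control miRNA, 6.38 and 6.15 in untreated db/db and 5.27 and 5.73 in normal kidney. Mimic replicate 1 lay between the normal values, and none of the comparisons passed (adjusted p = 0.606, 0.206 and 0.183 in limma). When either mimic array was left out, Slc7a7 passed in untreated db/db against normal. Slc38a3, which brings glutamine into the proximal tubule cell for ammonia production, was at 2.24 and 1.16 in mimic, 0.58 and 1.01 in control miRNA, 0.80 and 0.94 in untreated db/db and 0.08 and 0.33 in normal kidney. All db/db kidneys lay above both normal kidneys, by 1.50, 0.59 and 0.67 on average (adjusted p = 0.0530, 0.389 and 0.301). Slc7a6, another partner of Slc3a2, differed by -0.10, -0.11 and 0.08.

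**Figure D2:**
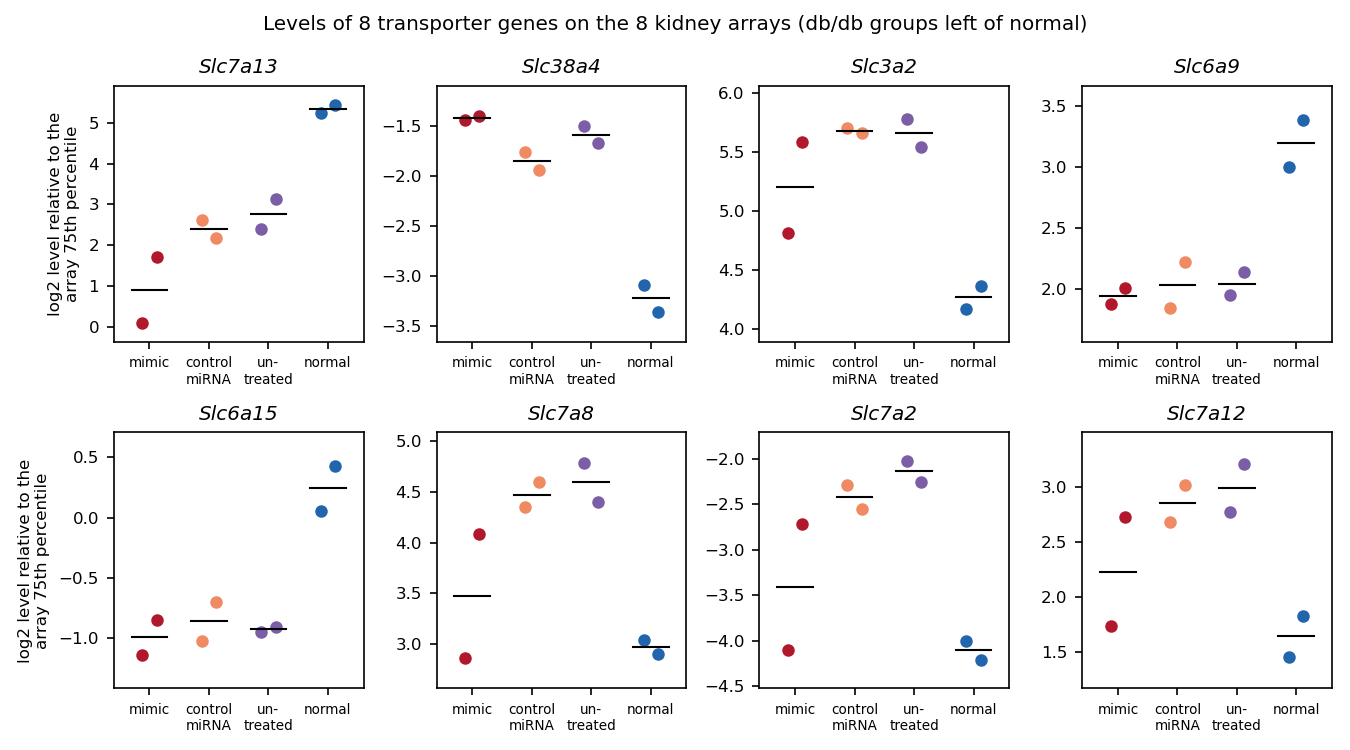
Log2 level of 8 transporter genes on each array, relative to the 75th percentile of that array, with 2 points a group (replicate 1 on the left) and a line at their mean. Slc7a13, Slc6a9 and Slc6a15 lie lower on all 6 db/db arrays than on the normal arrays and Slc38a4 and Slc3a2 higher, while mimic replicate 1 of Slc7a8, Slc7a2 and Slc7a12 lies near the normal arrays.

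The osmolyte and creatine transporters did not pass in any comparison. Slc6a8, the creatine transporter, was at 5.37 and 5.64 in mimic, 5.65 and 5.64 in control miRNA, 5.74 and 5.58 in untreated db/db and 4.95 and 5.32 in normal kidney. All db/db kidneys lay above both normal kidneys, by 0.37, 0.51 and 0.53 on average (limma, adjusted p = 0.197, 0.161 and 0.128). Slc6a12, the betaine transporter that responds to tonicity in medullary cells, was at -3.09 and -1.19 in mimic, -1.28 and 0.36 in control miRNA, 0.19 and -0.01 in untreated db/db and -0.50 and -1.75 in normal kidney. The replicates of mimic, control miRNA and normal kidney were each over 2-fold apart, and the mimic values lay below both untreated values (difference -2.23, adjusted p = 0.313). Slc6a6, the taurine transporter, was at 3.65 and 4.42 in mimic, 4.30 and 4.55 in control miRNA, 4.78 and 4.68 in untreated db/db and 4.57 and 4.40 in normal kidney. Slc6a13, a carrier of GABA and taurine, stayed between 3.95 and 4.27 on all 8 arrays. The proline transporter Slc6a7 differed from normal by -0.15 in mimic, 0.25 in control miRNA and 0.31 in untreated db/db kidney.

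Of the transporters that supply growing and stressed cells, 8 of 12 were tested. Slc38a4 (chromosome 15, 96827256 to 96827315 on mm9) was at -1.43 and -1.39 in mimic, -1.76 and -1.94 in control miRNA, -1.50 and -1.67 in untreated db/db and -3.09 and -3.36 in normal kidney. The db/db and normal kidneys did not overlap, and the replicates of each group lay close together. The mean was -1.41 ± 0.03 in mimic, -1.85 ± 0.13 in control miRNA, -1.58 ± 0.12 in untreated db/db and -3.23 ± 0.19 in normal kidney (SD, n = 2 each). Slc38a4 rose 3.51-fold in mimic (limma, adjusted p = 0.00518), 2.60-fold in control miRNA (0.0192) and 3.12-fold in untreated db/db kidney (0.0107). Another Slc38a4 probe was 1.40, 1.57 and 1.64 higher on the log2 scale in the same groups and passed in untreated db/db kidney (adjusted p = 0.0479 over probes).

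Slc7a2, which carries arginine and other cationic amino acids, was at -4.10 and -2.71 in mimic, -2.29 and -2.55 in control miRNA, -2.02 and -2.25 in untreated db/db and -4.00 and -4.21 in normal kidney. The 4 control miRNA and untreated values lay above all others, and mimic replicate 1 lay within the normal values. The differences from normal were 0.70, 1.68 and 1.97 (limma, adjusted p = 0.306, 0.0974 and 0.0608). Without mimic replicate 1 the mimic difference was 1.39. The control miRNA and untreated comparisons of Slc7a2 passed when either mimic array was left out. Slc38a2, a sodium-coupled carrier that cells raise when amino acids run short, was at 1.65 and 0.91 in mimic, 1.11 and 1.32 in control miRNA, 1.18 and 0.80 in untreated db/db and 1.06 and 0.25 in normal kidney, and the control miRNA values lay above both normal values. Slc1a5, a glutamine carrier of dividing cells, differed from normal by 0.20, -0.15 and -0.11, and Slc38a1, another glutamine carrier, by 0.34, 0.11 and 0.15. The cationic amino acid transporter Slc7a1 differed by -0.09, -0.11 and -0.16, and Slc7a5, a light chain of Slc3a2 for large neutral amino acids, by -0.50, -0.27 and -0.18. None of these passed. Another Slc38a1 probe was on the other side, at -0.44, -0.85 and -1.14. Slc7a11, the cystine and glutamate exchanger, was not well above background on both arrays of any group.

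Slc1a4, a carrier of alanine, serine and cysteine, passed in mimic against normal kidney, but its probe cannot tell it from other transcripts. The probe (chromosome 11, 20202615 to 20202674 on mm9) is the only kept Slc1a4 probe and read 4.87 and 3.68 in mimic, 2.29 and 2.12 in control miRNA, 2.36 and 2.20 in untreated db/db and 1.59 and 1.57 in normal kidney. The difference of mimic from normal was 2.70 with a standard error of 0.36 (limma, adjusted p = 0.0123), and the differences of control miRNA and untreated db/db from normal were 0.63 and 0.70 (0.369 and 0.285). The repeat of G and T in capitals above occurs on the same strand in probes of 12 other genes. All 12 were higher than in normal kidney in every db/db group, with medians of 2.74 in mimic (1.35 to 2.96), 0.83 in control miRNA (0.45 to 0.90) and 0.85 in untreated db/db kidney (0.51 to 1.03). In the probes of 4 other genes the run lies on the opposite strand, and all 4 were lower in every db/db group, with medians of -1.66, -0.79 and -0.93. The reading of the Slc1a4 probe lay within the range of the same-strand probes in all 3 groups, so a change in Slc1a4 RNA and a change in whatever these probes share cannot be told apart. Without probes that share a run with 5 or more other genes, an alternative chosen after seeing the data, 5 members passed in mimic against normal kidney of 49 tested, instead of 6.

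**Figure D3:**
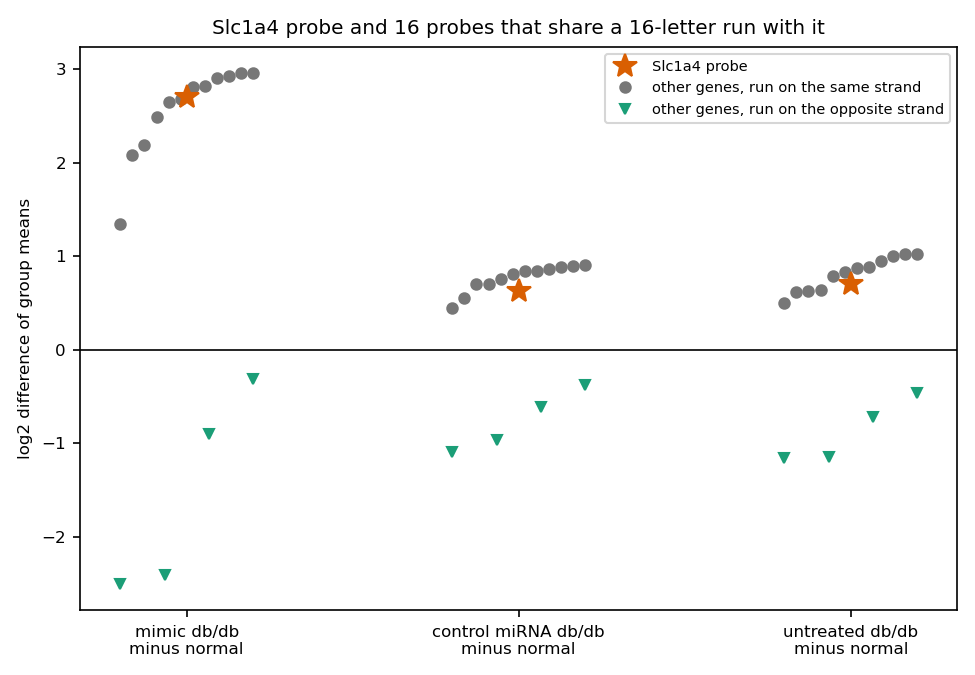
Log2 difference of the group mean from normal for the Slc1a4 probe (star) and for the probes of 16 other genes that share a run of 16 letters with it, split by the strand of the run, in each db/db group. The star lies among the 12 same-strand probes in every group, and the 4 opposite-strand probes lie below 0.

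In the promoter sequences of RefSeq (GRCm38.p6), 47 of the 64 genes were matched by name, with 67 promoters of 300 bases each. The amino acid response element TTGCATCA, searched on both strands, is bound by factors that cells activate when amino acids run short. It was found in 4 of the 67 member promoters, of the 3 members Slc1a4, Slc7a7 and Slc7a11, and in 0.895% of all 32851 promoters. The Slc7a7 match lies in overlapping promoters of that gene and is shown once. The matches are shown in capitals on the strand of the gene.
Slc1a4, chromosome 11, promoter chr11:20332664-20332963, minus strand: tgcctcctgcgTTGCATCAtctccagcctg
Slc7a7, chromosome 14, promoter chr14:54417895-54418194, minus strand: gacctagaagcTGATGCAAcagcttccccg
Slc7a11, chromosome 3, promoter chr3:50443564-50443863, minus strand: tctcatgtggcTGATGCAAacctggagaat
Slc7a11, chromosome 3, the same promoter: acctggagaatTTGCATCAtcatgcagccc
Of these genes, Slc7a7 did not pass in any comparison, Slc7a11 was not tested, and the reading for Slc1a4 is limited by its probe. Other motifs were searched in the same way. CACGTG was found in 8 of the 67 member promoters and in 7.15% of all promoters. TGACGTCA was found in 1 of the 67 and in 1.79%, and CAAAGTCCA in 1 of the 67 and in 0.475%. TTATGTAA and the palindromic androgen response element were found in 0 members, and in 0.938% and 0.00913% of all promoters. None of these motifs contains another.

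Of the 9 tested transporters of lysosomes and other inner membranes, 0 passed in any comparison with limma. At an unadjusted p under 0.05 there were 3, 1 and 2 members in mimic, control miRNA and untreated db/db against normal kidney. The shares of all genes at that threshold were 30.3%, 21.7% and 24.7%. Slc38a9, which senses arginine at the lysosome for mTORC1, read 3.83 and 3.63 in mimic, 3.87 and 3.87 in control miRNA, 3.82 and 3.52 in untreated db/db and 4.46 and 4.17 in normal kidney. This probe read lower in all db/db kidneys, by -0.59, -0.45 and -0.65 on average (adjusted p = 0.0806, 0.200 and 0.0880). It shares a run with probes of 12 other genes, whose medians were -0.27, -0.29 and -0.39. The other Slc38a9 probe, which shares none, differed by 0.08, -0.06 and -0.09. Slc38a7 and Slc38a10, by the probes that stand for them, differed from normal by at most 0.26 in size, and Slc36a4 by -0.28, 0.06 and 0.18. Another Slc38a10 probe was at -0.17 and -0.06 in normal kidney and between -0.81 and -0.48 on the db/db arrays. A further Slc38a10 probe was at -3.88 and -3.92 in normal kidney and between -4.46 and -3.90 on the db/db arrays. Slc38a8, which lay lower on all 6 db/db arrays than on the normal arrays, differed by -0.33, -0.26 and -0.30, and Slc38a6 by -0.69, -0.26 and -0.27. Slc6a17 and Slc7a14 differed from normal by at most 0.18 in size. Slc38a11 was at -5.89 on mimic replicate 1 and between -4.76 and -4.15 on the 7 other arrays.

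Members known for clearing transmitters or serving nerve cells had median differences from normal of -0.75 in mimic, -0.37 in control miRNA and -0.59 in untreated db/db kidney. Of the 9 that were tested, 3 (33.3%) passed as lower in mimic, 1 (11.1%) in control miRNA and 2 (22.2%) in untreated db/db against normal kidney. None passed as higher. Over all genes 5.93%, 1.19% and 2.26% passed as lower and 3.04%, 0.675% and 1.24% as higher in the same comparisons. Slc6a9, a glycine transporter (chromosome 4, 117541842 to 117541901 on mm9), was at 1.87 and 2.01 in mimic, 1.84 and 2.22 in control miRNA, 1.94 and 2.13 in untreated db/db and 3.00 and 3.38 in normal kidney. The db/db kidneys lay together below both normal kidneys. Slc6a9 fell 2.38-fold in mimic (limma, adjusted p = 0.0186), 2.24-fold in control miRNA (0.0487) and 2.22-fold in untreated db/db kidney (0.0398). Its probe shares a stretch with the probe of 1 other gene, which differed from normal by 0.05, -0.11 and 0.06.

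Slc6a15, a transporter of branched neutral amino acids and proline best known from neurons (chromosome 10, 102881847 to 102881906 on mm9), was at -1.14 and -0.85 in mimic, -1.02 and -0.70 in control miRNA, -0.95 and -0.91 in untreated db/db and 0.06 and 0.43 in normal kidney. It fell 2.36-fold in mimic (limma, adjusted p = 0.0179) and 2.25-fold in untreated db/db kidney (0.0356), and was 2.15-fold lower in control miRNA kidney without passing (0.0523). Slc1a7, a glutamate transporter first known from the retina, was well above background on no mimic array. It was at least 2.13-fold lower in mimic than in normal kidney (limma, adjusted p = 0.0156), with measured means of -5.13 in mimic and -3.92 in normal kidney. Slc1a3, a glutamate transporter of glial cells, was at -3.76 and -3.80 in mimic, -3.79 and -3.99 in control miRNA, -3.90 and -4.00 in untreated db/db and -2.37 and -3.28 in normal kidney. All db/db values were lower, but the normal kidneys were 0.90 apart and no comparison passed (adjusted p = 0.0860, 0.107 and 0.0819). Slc1a2, Slc1a6 and Slc6a16 did not pass against normal, with Slc6a16 at -0.75, -0.37 and -0.08. Another probe of the serotonin transporter Slc6a4 than the one that stands for it differed by -0.88 in mimic from normal kidney (adjusted p = 0.0349 over probes), where the standing probe differed by -0.32. In control miRNA and untreated db/db kidney the standing probe was 0.44 and 0.53 above normal. The other probe lay below normal there, between -4.46 and -4.28 against -4.05 and -3.63 in normal kidney. The 2 probes thus differed in direction in those groups. The 8 measured markers of neurons and nerve summed to 5.09 to 6.01 in mimic, 8.30 to 9.03 in control miRNA, 7.94 to 8.14 in untreated db/db and 13.8 to 14.6 in normal kidney, and 6 of them were above background on all 8 arrays. Snap25, a synaptic vesicle fusion protein, made up 23.2% to 79.3% of that sum, and the 7 other markers summed to 3.35 to 3.91 in mimic, 2.50 to 2.80 in control miRNA, 2.82 to 2.93 in untreated db/db and 2.94 to 3.01 in normal kidney. The median difference of the list from normal was -0.26 in mimic, -0.28 in control miRNA and -0.09 in untreated db/db. In mimic against normal 2 of the 8 were lower and 1 higher, the higher one being Elavl4, whose probe holds the run shared with the Slc1a4 probe. The part of these markers in the results was not tested.

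**Figure D4:**
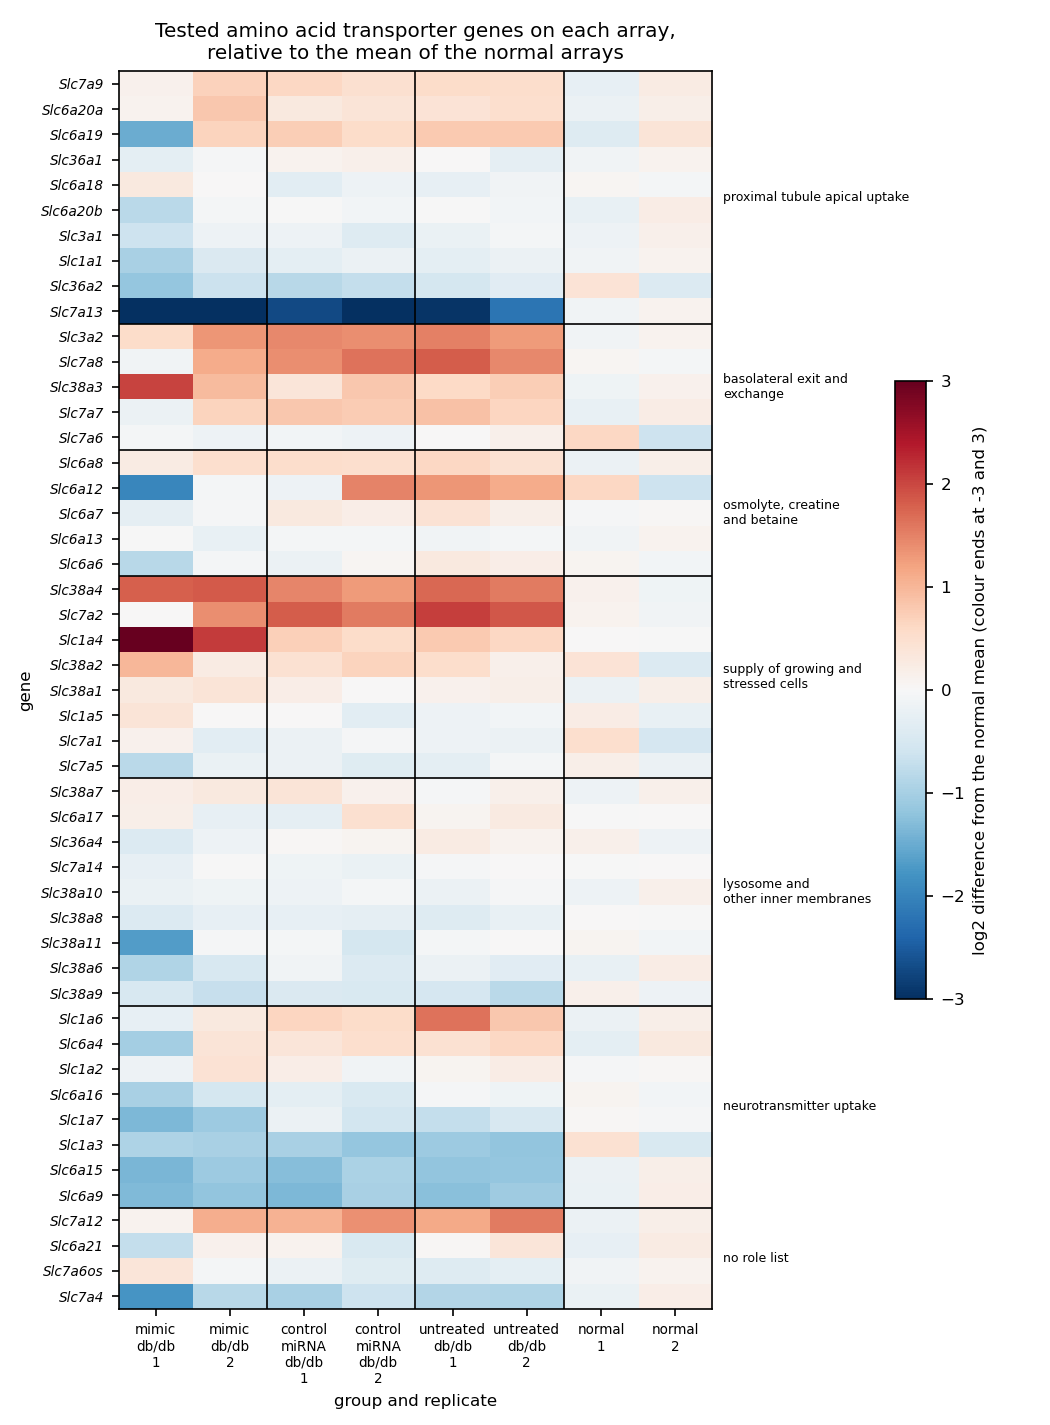
Difference of each array from the mean of the normal arrays (log2, colour from -3 to 3) for 49 of the 50 tested transporter genes, grouped by role, with the db/db arrays to the left of the normal arrays. Slc7a13 is the darkest blue row on all 6 db/db arrays, Slc38a4 and Slc3a2 are red on all 6, and mimic replicate 1 departs from the other db/db arrays in many rows.

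Members placed in no role list included Slc7a12, a light chain known to be higher in female than male mouse kidney. It was at 1.74 and 2.72 in mimic, 2.69 and 3.02 in control miRNA, 2.77 and 3.21 in untreated db/db and 1.46 and 1.83 in normal kidney. Mimic replicate 1 lay between the normal values and the other db/db values lay above them, and no comparison passed (limma, adjusted p = 0.301, 0.126 and 0.0884). When either mimic array was left out, Slc7a12 passed in control miRNA and untreated db/db against normal. Slc7a4 was at -1.24 and -0.31 in mimic, -0.44 and -0.10 in control miRNA, -0.36 and -0.38 in untreated db/db and 0.33 and 0.72 in normal kidney, all db/db values being lower (adjusted p = 0.0568, 0.218 and 0.153). When either mimic array was left out, Slc7a4 passed in control miRNA and untreated db/db against normal. The transcripts Slc7a6os and Slc6a21 differed from normal by at most 0.34 in size. The members with no probe well above background on both arrays of any group were Slc6a2, Slc6a3, Slc6a5, Slc6a11, Slc6a14, Slc6a19os, Slc7a3, Slc7a10, Slc7a11, Slc7a15, Slc36a1os, Slc36a3, Slc36a3os and Slc38a5.

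The comparisons within db/db mice ask what the mimic and the nanoparticles add. No transporter passed in mimic against control miRNA, in mimic against untreated or in control miRNA against untreated db/db kidney, where 0% of all genes passed in limma. At an unadjusted p under 0.05 there were 8 of 50 members in mimic against control miRNA (9.31% of all genes), 12 in mimic against untreated (13.9%) and 0 in control miRNA against untreated (3.24%). The groups did not overlap for 21 members in mimic against control miRNA (6 higher, 15 lower; all genes 39.4%, 16.5% higher and 22.9% lower). The counts were 26 in mimic against untreated (9 higher, 17 lower; all genes 47.8%, 20.7% and 27.1%) and 14 in control miRNA against untreated (3 higher, 11 lower; all genes 39.8%, 19.4% and 20.4%). The median over members was -0.14, -0.20 and -0.05, beside -0.04, -0.05 and -0.01 over all genes. The smallest p-values in mimic against control miRNA belonged to the Slc1a4 probe (2.07, adjusted p = 0.156), Slc1a7 (at least 1.66-fold lower, 0.219), Slc38a4 (0.43, 0.451), Slc7a13 (-1.50, 0.469) and Slc6a7 (-0.40, 0.479). In mimic against untreated db/db kidney they belonged to the Slc1a4 probe (2.00, 0.140), Slc1a6 (set apart in what follows), Slc6a16 (-0.67, 0.228), Slc7a13 (-1.86, 0.246) and Slc1a7 (at least 1.42-fold lower, 0.247). In control miRNA against untreated db/db kidney they belonged to Slc1a6, Slc38a4 (-0.27), Slc36a1 (0.26), Slc6a16 (-0.29) and Slc1a7 (0.22), all at an adjusted p of 1.00. Slc1a6, a glutamate transporter of cerebellar neurons, was well above background only on the untreated arrays and was tested only because of them, so its lower readings in the other db/db groups are no result. Without mimic replicate 1, only the Slc1a4 probe passed in mimic against control miRNA, with 0.505% of all genes, and 0 members passed in the other comparisons. Without mimic replicate 2, 15 members passed in mimic against control miRNA, with 13.8% of all genes, and 17 in mimic against untreated db/db kidney, with 18.6% of all genes, the mimic group then being replicate 1 alone. With 2 samples a group, a p that misses the threshold does not show that the groups were alike.

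The transporter levels of the mimic group rest on kidneys that differed from each other. Mimic replicates lay more than 2-fold apart for 9 of the 50 members, control miRNA replicates for 1, untreated replicates for 0 and normal replicates for 3. Among all 22367 tested genes the same counts were 2470 for mimic, 358 for control miRNA, 164 for untreated and 682 for normal replicates. The spread between mimic replicates was thus not limited to the transporters. On mimic replicate 1, 34 members (68%) lay below the range of the 4 control miRNA and untreated arrays, 11 (22%) above it and 5 (10%) within it, beside 44.6%, 30.6% and 24.8% of all genes. On mimic replicate 2, 12 members (24%) lay below that range, 10 (20%) above and 28 (56%) within, beside 26.2%, 25.3% and 48.5%. Slc6a19 differed most between the mimic kidneys, by -2.14 (replicate 1 minus replicate 2), followed by Slc6a12 at -1.90, Slc38a11 at -1.64, Slc7a13 at -1.60 and Slc6a4 at -1.40. On the other side, the Slc1a4 probe read 1.20 and Slc38a3 was 1.08 higher on replicate 1. The members whose readings on both mimic arrays lay below the 4 other db/db arrays included Slc7a13, Slc7a2 and Slc7a8, and those above included Slc38a3 and the Slc1a4 probe. The 8 measured tubular injury markers summed to 272 to 862 in mimic, 215 to 250 in control miRNA, 226 to 263 in untreated db/db and 116 to 152 in normal kidney. Spp1 and Clu made up 74.6% to 92% of these sums, and the 6 other markers summed to 29.4 to 69.3 in mimic, 24.8 to 29.5 in control miRNA, 24.9 to 25.3 in untreated db/db and 29.5 to 35.1 in normal kidney. The median difference of the list from normal was 1.20 in mimic, 0.02 in control miRNA and -0.06 in untreated db/db. In limma 1, 0 and 0 of 8 passed, beside 8.98%, 1.87% and 3.5% of all genes. At an unadjusted p under 0.05 there were 2, 0 and 0, beside 30.3%, 21.7% and 24.7% of all genes. The part of these markers in the low transporter levels of mimic replicate 1 was not tested.

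**Figure D5:**
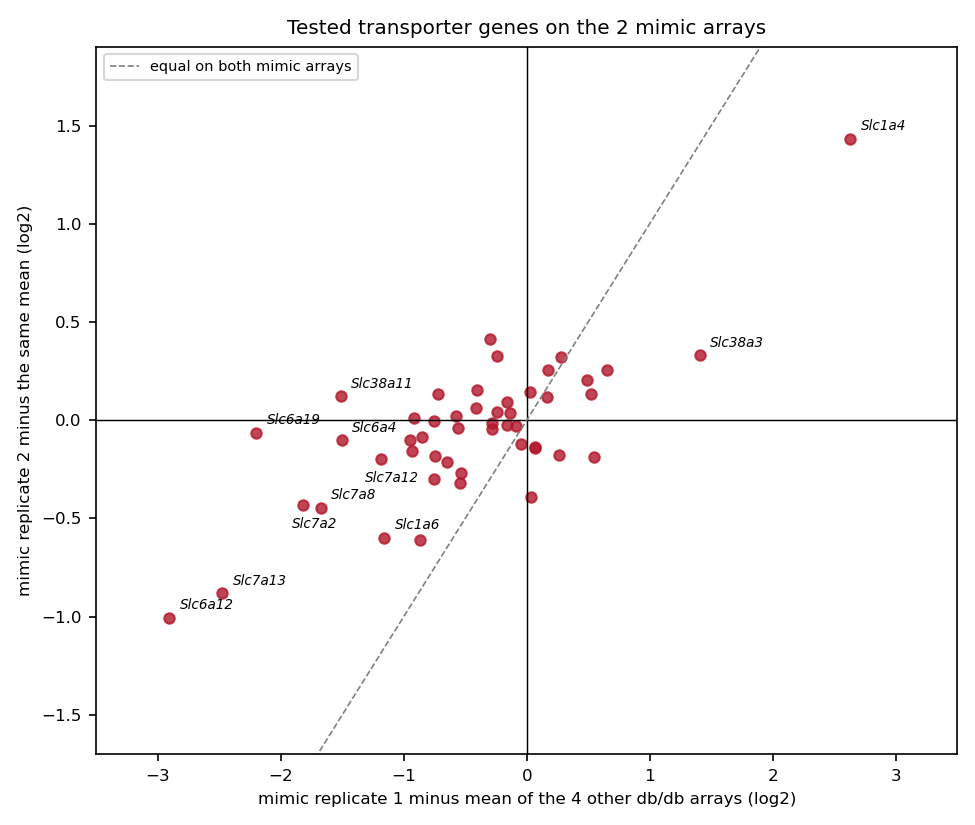
Departure of 49 of the 50 tested transporter genes from the mean of the 4 control miRNA and untreated db/db arrays (log2), on mimic replicate 1 (horizontal) and mimic replicate 2 (vertical), with a dashed line where both are equal. Most points lie left of the vertical line at 0 and near 0 in height, with Slc7a13 and Slc6a12 low and Slc1a4 and Slc38a3 high on both arrays.

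Genes that work beside these families were examined as lists. For comparison with all list counts below, 8.98%, 1.87% and 3.5% of all genes passed in mimic, control miRNA and untreated db/db against normal kidney. At an unadjusted p under 0.05 in limma the shares of all genes were 30.3%, 21.7% and 24.7%. Of 14 tested genes for other amino acid and peptide uptake in kidney, 3 passed in mimic (1 higher, 2 lower), 2 in control miRNA and 2 in untreated db/db against normal kidney (1 in each direction). Slc16a10, which lets aromatic amino acids out of the tubule cell, rose by 0.93 in mimic (limma, adjusted p = 0.00959), 0.75 in control miRNA (0.0388) and 0.71 in untreated db/db kidney (0.0335). Ggt1, the apical enzyme that breaks down glutathione, fell by 1.04 in mimic (0.0126), 1.11 in control miRNA (0.0280) and 1.19 in untreated db/db kidney (0.0181) on the log2 scale. Slc17a5 had the most negative difference of the list in mimic kidney, at -2.80. It was at 0.31 and 1.36 in mimic and 3.77 and 3.51 in normal kidney. In control miRNA it was at 2.62 and 2.59, and in untreated db/db kidney at 2.34 and 2.45. Of 12 genes for ammonia production and transport, 3 rose in mimic, 0 in control miRNA and 0 in untreated db/db against normal kidney, with 9, 7 and 6 at an unadjusted p under 0.05. They were Pck1, which takes part in making glucose from the carbon of glutamine, at 2.28 (adjusted p = 0.00828), the alanine aminotransferase Gpt at 0.94 (0.0375) and the ammonia transporter Rhbg at 0.84 (0.0447).

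Of 20 genes of the amino acid response, 1 rose in mimic, the stress factor Atf3 (2.09, limma, adjusted p = 0.0311, though it was well above background on only 1 of the 2 normal arrays), and 0 in the other groups against normal kidney. Atf4, the factor that drives that response, differed by 0.02 in mimic, -0.20 in control miRNA and -0.18 in untreated db/db kidney. The median difference of the 20 genes from normal was 0.25 in mimic, -0.09 in control miRNA and 0.02 in untreated db/db. In mimic against control miRNA 16 of them were higher and 4 lower on average, and 0 passed. The mimic replicates lay apart in both directions, with Psat1 at 4.59 and 1.69 and Phgdh at 1.01 and 2.55. The 16 tested genes of nutrient sensing by mTORC1 had 0 calls in any comparison, with 3, 3 and 4 at an unadjusted p under 0.05 in the 3 comparisons with normal kidney. Of 10 tonicity genes, 1 fell in mimic, Akr1b3, which makes the osmolyte sorbitol (-2.03, 0.0491), and 0 passed in the other groups against normal. Of 10 genes for making creatine and taurine, 2 passed in mimic, 0 in control miRNA and 1 in untreated db/db against normal kidney. Bhmt, which uses betaine to remake methionine, rose by 2.84 in mimic (0.0187) and 3.12 in untreated db/db kidney (0.0272), and Csad, an enzyme of taurine synthesis, fell by 1.29 in mimic (0.0318).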

How the data were processed

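Per the labels' protocols, kidney RNA was isolated on columns and 50 ng of it was labelled with Cy3. Per the file headers, the deposited scanner files of Agilent Feature Extraction 12.0.3.1 give each spot's background-subtracted intensity and quality calls, with probe positions on mm9. The deposited series table gives a linear ratio per probe to its median over the 8 arrays, a scale found by setting it against the scanner values (r from 0.9995 to 0.9999); its column medians are 0.971 to 1.08. It served as an alternative.

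Of 59305 spots an array, those flagged as outliers were set aside and the intensities of the rest were averaged per probe. Probes with no usable spot on some array (4) were left out. The probe means were divided by the array's 75th percentile and put on the log2 scale. Probes well above background on both arrays of a group were kept (33637). A gene was represented by its kept probe with the highest mean level. Names follow RefSeq (GRCm38.p6) by accession, symbol or synonym. limma 3.58.1 in R 4.3.3 fitted 1 mean a group, with moderated variances. Bounds ("at least") compare a measured group with, on each array of the other, the lowest signal well above background or the probe's own signal, whichever is higher. The fit was tested on simulated data.

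The text names, per comparison, members with an adjusted p under 0.05, or the 5 smallest p-values where fewer than 5 passed, a fixed list of renal members, and members with no probe above background. Some members outside these were named after their values were seen. Members and lists were chosen with earlier results of these data known. The number of arrays limits the precision. The values of 1 member are not reported here; counts and medians over the members include it.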

Additional observations from a re-analysis of the deposited data

How the results depend on the processing

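No called direction of a tested member reversed under any alternative run. The number of members that passed moved with the processing; the cause was not tested. In untreated db/db against normal kidney it was 9 with normexp background correction, 1 with no filter on dim probes, 11 with only the 4 arrays compared and 10 with array weights. Over all genes, 1865 of 22367 passed there with normexp and 292 of 36824 with no filter, beside 783 of 22367 in the main run. With no filter, 64 members were tested. In control miRNA against normal kidney the members that passed were 5 with normexp, 5 with only probes well above background on all 8 arrays (46 members tested), 1 with no filter, 1 with the authors' deposited table, 6 with only the 4 arrays and 7 with array weights. Over all genes the first 3 of these runs gave 953 of 22367, 437 of 19263 and 127 of 36824, beside 418 of 22367 in the main run. In mimic against normal kidney the number of members was 0 with only the 4 arrays and 3 with array weights. Leaving out each array in turn gave 1 to 19 members in mimic, 0 to 11 in control miRNA and 0 to 14 in untreated db/db against normal, 0 to 15 in mimic against control miRNA, 0 to 17 in mimic against untreated and 0 to 0 in control miRNA against untreated db/db kidney; a lone array is assumed to vary like the other groups.

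The replicate numbers share only a number. The correlation of same-numbered deviations was -0.02 to 0.16 over the 6 pairs of groups, so they were not taken as pairs. With the replicate block, 7 members passed in mimic, 3 in control miRNA and 4 in untreated db/db against normal, and 0 in the other comparisons. Slc3a2 lost its call in untreated db/db against normal, and Slc7a12 there, Slc6a15 in control miRNA and Slc7a4 in mimic against normal gained one.

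Signals near background, as for Slc1a6, Slc1a7 and Slc38a11, limit those members to bounds or single arrays, and 14 members could not be tested.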
